A study of Mus musculus with 8 samples.

Results

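Cd69, the sphingosine-1-phosphate (S1P) receptor genes S1pr1 and S1pr4, and the transcription factor genes Klf2 and Klf3 were followed through 8 RNA-seq libraries of tumour-antigen-specific CD8+ T cells. The 5 genes were taken by symbol from the deposited gene tables, each was found at 1 locus in every table, and they make up 5 of 23746 rows. All cells were CD8+ T cells from BALB/c mice, stained with the AH1 tetramer (which presents a peptide of an endogenous retroviral envelope protein) and sorted alive. The 4 groups were term diff and stem-like cells of Cd69-/- mice, and term diff and stem-like cells of wild-type mice, with 2 libraries in each. Term diff is the submitters' name for one sorted subset and stem-like for the other, and the gates that define them were not given in the sources used here. The tumour, the age and number of mice, whether subsets came from the same mice, and which part of Cd69 the Cd69-/- allele lacks were not given either. Because nothing states that libraries came from separate mice, p-values below measure the spread between libraries, which may be technical.

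S1P is a lipid that is abundant in blood and lymph and scarce inside tissue. A T cell carrying S1PR1 at its surface senses that gradient and leaves the tissue along it. CD69, a type II membrane protein that appears within hours of activation, binds S1PR1 and takes it off the surface, so that activated cells stay. Krüppel-like factor 2 (KLF2) is the transcription factor that drives S1pr1 and other genes of recirculating T cells, and FOXO1 drives Klf2. KLF3 binds the same CACCC class of DNA motif as KLF2 and acts mainly as a repressor. S1PR4 is a further S1P receptor, found chiefly on blood cells.

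Expression values are FPKM (fragments scaled to transcript length and to the library's total), which the authors deposited with an interval for each value. The width of that interval implies a number of fragments behind each value, and these numbers summed to 2055411 to 2591061 per library. The share of small RNA in the summed FPKM set 2 libraries apart. The 793 rows of small RNA genes held 62.4% of the summed FPKM in wild-type stem-like library 2 and 54.91% in wild-type term diff library 2, against 76.94% to 83.88% in the other 6 libraries. By implied fragments the same rows held only 0.17% to 0.68% of a library. By that share wild-type stem-like library 2 was not set apart, at 0.4% like Cd69-/- stem-like library 1. Wild-type term diff library 2 was the lowest, at 0.17%. Where leaving out both wild-type replicate 2 libraries ended the call of a gene named below, the adjusted p without them is given or the loss is stated. Libraries are called 1 and 2 after the replicate numbers in their labels. The summed FPKM of 5 CD8 T cell marker genes was 1085 to 1198 in Cd69-/- term diff, 791 to 859 in wild-type term diff, 952 to 989 in Cd69-/- stem-like and 836 to 959 in wild-type stem-like libraries. The summed B cell markers reached at most 0.616 FPKM.

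Differences are given on the log2(FPKM + 1) scale ± standard error (SE) from limma, with p-values adjusted by Benjamini and Hochberg over the 9782 genes that reached 1 FPKM in at least 2 libraries. The threshold was 0.05. Adding 1 before the logarithm understates the change of genes with low FPKM.

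Levels differed widely between the 5 genes. Averaged over the 8 libraries, Cd69 stood at 9.999 FPKM, above 88.7% of all rows, Klf2 at 5.822 FPKM, above 82.0%, and S1pr4 at 4.68 FPKM, above 78.9%. S1pr1 at 0.596 FPKM and Klf3 at 0.573 FPKM were above only 57.1% and 56.8% of rows. Klf3 passed the filter through the stem-like libraries, where it was highest, and S1pr1 did not pass it.

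**Figure D1:**
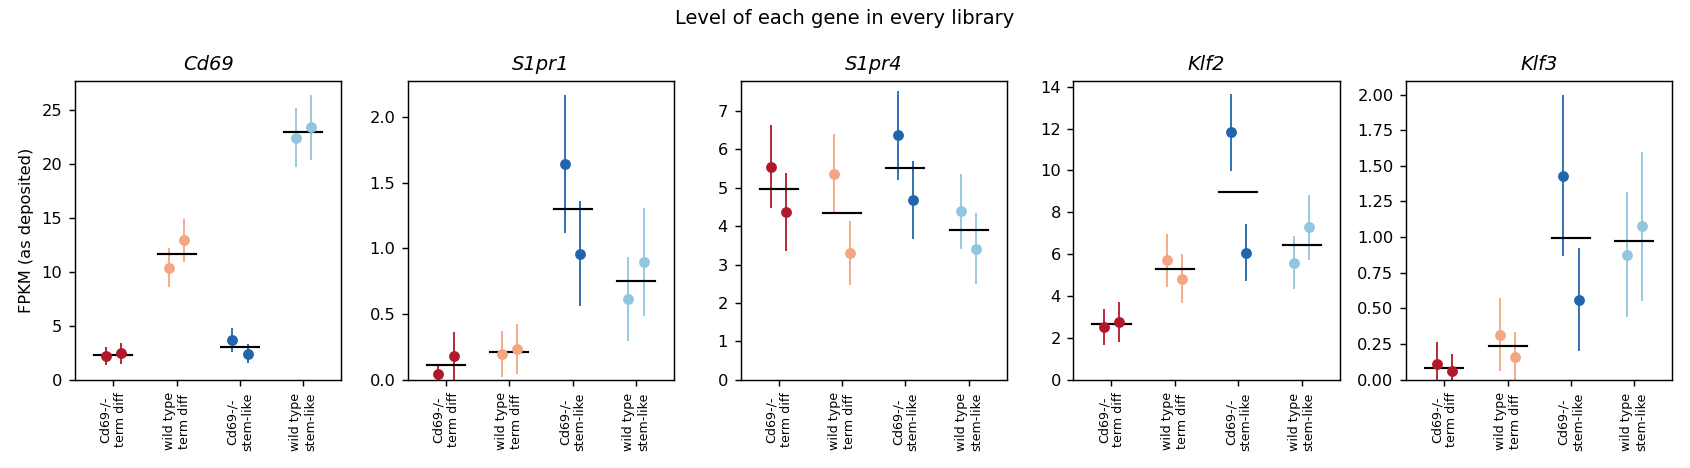
FPKM (vertical axes, linear, each with its own range) of the 5 genes in every library. Points are libraries, whiskers the deposited interval of each value, black lines the mean of the 2 libraries of a group. Cd69 is lower in all 4 Cd69-/- libraries, S1pr1 and Klf3 are low in all 4 term diff libraries, Klf2 is lowest in the 2 Cd69-/- term diff libraries, and the S1pr4 groups lie on similar levels.

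Cd69 is the targeted gene, and its level checked the genotype labels. In Cd69-/- term diff libraries it was at 2.21 and 2.43 FPKM, in wild-type term diff at 10.4 and 12.9 FPKM, in Cd69-/- stem-like at 3.69 and 2.42 FPKM, and in wild-type stem-like at 22.5 and 23.4 FPKM. All 4 Cd69-/- libraries lay below all 4 wild-type libraries, so no library went against its genotype label. The order of the group means was wild-type stem-like, wild-type term diff, Cd69-/- stem-like and Cd69-/- term diff, and only the 2 Cd69-/- groups overlapped.

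Some Cd69 signal was left in the Cd69-/- cells. It rested on 26.9 and 26.9 implied fragments in the Cd69-/- term diff libraries and on 44.3 and 29.0 in Cd69-/- stem-like, against 133 and 166 in wild-type term diff and 268 and 241 in wild-type stem-like. The gene lies on chr6:129267325-129275369 (mm10), on the minus strand, and its first GENCODE transcript has 5 exons. The values are totals over the gene, so the exons behind the remaining fragments are not resolved.

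Between genotypes, Cd69 was the single member of the 5 that passed the threshold. In stem-like cells its mean was 3.05 ± 0.902 FPKM in Cd69-/- and 23.0 ± 0.696 FPKM in wild type (SD, n = 2 each), 7.52-fold lower in Cd69-/- (-2.58 ± 0.17, adjusted p = 0.000959). Genes called in either direction in that comparison made up 0.153% of the genes tested. In term diff cells the mean was 2.32 ± 0.158 FPKM in Cd69-/- and 11.7 ± 1.79 FPKM in wild type, 5.03-fold lower in Cd69-/- (-1.93 ± 0.17, adjusted p = 0.00956), where 0.194% of genes were called. Averaged over both subsets the difference was -2.25 ± 0.12 (adjusted p = 0.000247), with 0.542% of genes called. The term diff call was lost on leaving out wild-type term diff library 2 (adjusted p = 0.0547), Cd69-/- term diff library 1 (adjusted p = 0.0779) or its library 2 (adjusted p = 0.0886), and without both wild-type replicate 2 libraries (adjusted p = 0.0878).

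Within wild type, Cd69 was itself lower in the term diff subset. Its mean was 11.7 FPKM in term diff and 23.0 FPKM in stem-like cells, 1.97-fold lower (-0.93 ± 0.17, adjusted p = 0.0109). In the wild-type subset comparison 13.1% of all tested genes were called, and 5.83% were called lower. This Cd69 call was lost without wild-type stem-like library 1 (adjusted p = 0.0521), its library 2 (adjusted p = 0.0542), wild-type term diff library 1 (adjusted p = 0.0693), or both wild-type replicate 2 libraries (adjusted p = 0.0927). In Cd69-/- cells the remaining signal differed by -0.27 ± 0.17 between term diff and stem-like (adjusted p = 0.377, 95% interval -0.67 to 0.12). The subset difference was not shown to depend on genotype (interaction 0.66 ± 0.24, adjusted p = 0.542, unadjusted p = 0.0266), and 0.0307% of genes were called for the interaction.

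S1pr1 encodes the receptor that CD69 removes from the surface. Its levels were low throughout: 0.0410 and 0.180 FPKM in Cd69-/- term diff, 0.196 and 0.233 FPKM in wild-type term diff, 1.64 and 0.960 FPKM in Cd69-/- stem-like, and 0.614 and 0.897 FPKM in wild-type stem-like libraries. All 4 term diff libraries lay below all 4 stem-like libraries. The same was true of 6.2% of all rows above 0. The lowest library, Cd69-/- term diff library 1, rested on 1 implied fragment, and the 2 Cd69-/- term diff libraries together on 5. The 2 wild-type term diff libraries together held 11 implied fragments, against 62.3 in Cd69-/- stem-like and 33.7 in wild-type stem-like libraries.

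Taking the genotypes together, S1pr1 averaged 0.163 FPKM in the 4 term diff libraries and 1.03 FPKM in the 4 stem-like libraries, so that stem-like cells held 6.33-fold more. The difference in mean log2(FPKM + 1) was -0.78. A 2-sided exact permutation test gave an unadjusted p = 0.0286, the smallest p that the 70 regroupings of 4 against 4 libraries can give. The full separation of the libraries fixes that p, and 6.2% of all rows above 0 separated in the same direction. S1pr1 was also chosen with earlier results of these data known, so this p supports nothing on its own. In a bulk library, fewer cells carrying a transcript and less transcript per cell cannot be told apart, here and for every gene below. The receptor gene lies on chr3:115710433-115715055 (mm10, minus strand, 2 exons).

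Because S1pr1 fell below the filter, its differences within genotypes came from a fit of all 22397 rows above 0. In Cd69-/- cells the difference between term diff and stem-like was -1.04 ± 0.18 (adjusted p = 0.0434), in a fit that called 2.43% of rows in either direction and 1.41% lower. That call rested on few fragments and did not survive the loss of any 1 of the 8 libraries (adjusted p = 0.0752 to 0.163) or of both wild-type replicate 2 libraries (adjusted p = 0.173), although the difference stayed between -1.255 and -0.823. In wild type the difference was -0.53 ± 0.18 (adjusted p = 0.207), where 3.36% of rows were called and 1.62% were called lower. The interaction was -0.51 ± 0.25 (adjusted p = 0.694), so the subset difference was not shown to depend on genotype.

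Loss of Cd69 was not accompanied by a called change of S1pr1 RNA, although the libraries of the 2 genotypes did not overlap in either subset. An exact permutation test of 2 against 2 libraries can give no p below 0.333, so this separation says little. With 2 libraries a group, the missing call does not show that S1pr1 RNA was unchanged. In stem-like cells S1pr1 averaged 1.303 ± 0.484 FPKM in Cd69-/- and 0.756 ± 0.200 FPKM in wild type (SD, n = 2 each), a difference of 0.38 ± 0.18 (adjusted p = 0.889, unadjusted p = 0.0726), in a fit that called 0.0179% of rows. In term diff cells it averaged 0.111 ± 0.0987 FPKM in Cd69-/- and 0.214 ± 0.0262 FPKM in wild type, a difference of -0.13 ± 0.18 (adjusted p = 0.825, with 0.0491% of rows called). These are RNA levels, and S1PR1 protein at the cell surface was not measured.

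Endothelial cells also express S1pr1, and one gene of their marker list moved with it. The summed FPKM of 7 endothelial markers was 4.86 to 5.55 in Cd69-/- term diff, 6.29 to 6.61 in wild-type term diff, 12.4 to 14.1 in Cd69-/- stem-like and 11.4 to 13.5 in wild-type stem-like libraries. Nearly all of it was Pecam1, an adhesion molecule that T cells also carry, at 4.47 FPKM in Cd69-/- term diff and 12.9 FPKM in Cd69-/- stem-like cells, and at 5.92 FPKM in wild-type term diff and 11.9 FPKM in wild-type stem-like cells. Pecam1 was called lower in term diff cells of Cd69-/- (-1.35, adjusted p = 0.000865) and of wild type (-0.89, adjusted p = 0.00434), the wild-type call being lost without both wild-type replicate 2 libraries (adjusted p = 0.0961). The defining endothelial genes Cdh5, Kdr and Tek reached at most 0.203, 0.132 and 0.172 FPKM. Egfl7, Emcn and Cldn5 reached at most 0.505, 0.095 and 0.11 FPKM, and none of the 7 was at 0 in all libraries.

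The list of 4 CD4 and regulatory T cell genes summed to 9.10 to 11.2 FPKM in Cd69-/- term diff and 10.1 to 10.4 FPKM in wild-type term diff, against 19.1 to 20.8 FPKM in Cd69-/- stem-like and 19.3 to 19.8 FPKM in wild-type stem-like libraries. Most of that sum was Il2ra, the interleukin-2 receptor alpha chain, which activated CD8+ T cells also carry. Il2ra was called lower in term diff cells of Cd69-/- (-1.24, adjusted p = 0.00543) and of wild type (-1.27, adjusted p = 0.00361). Both calls held whichever 1 of the 8 libraries was left out. Cd4 itself was at 1.38 to 5.52 FPKM over the 8 libraries and was not called between subsets (-0.29, adjusted p = 0.719 in Cd69-/-, and -0.60, adjusted p = 0.418 in wild type). Foxp3 was below the filter and reached at most 1.14 FPKM. It averaged 0.262 FPKM in Cd69-/- term diff and 1.06 FPKM in Cd69-/- stem-like cells. In wild type it averaged 0.236 FPKM in term diff and 0.449 FPKM in stem-like cells. Zbtb7b, the CD4 lineage factor, was at 2.196 FPKM in wild-type term diff and 1.10 FPKM in wild-type stem-like cells (0.61, adjusted p = 0.0388). The Zbtb7b call was lost without any 1 of 6 libraries, all but the Cd69-/- term diff pair (adjusted p = 0.0509 to 0.176), without both wild-type replicate 2 libraries (adjusted p = 0.322) and without a filter (adjusted p = 0.11).

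Of 7 myeloid markers 6 had a row under the symbol searched. Their sum was 2.93 to 4.35 FPKM in Cd69-/- term diff, 1.79 to 4.69 FPKM in wild-type term diff, 6.49 to 7.17 FPKM in Cd69-/- stem-like and 4.31 to 5.40 FPKM in wild-type stem-like libraries. Most of it was Lyz2 and Cd68, at most 3.11 and 3.32 FPKM and not called between subsets in either genotype, while Csf1r, Itgam, C1qa and C1qb reached at most 0.794 FPKM. The 5 NK markers summed to 36.8 to 38.2 FPKM in Cd69-/- term diff, 27.7 to 31.5 FPKM in wild-type term diff, 19.7 to 23.1 FPKM in Cd69-/- stem-like and 24.3 to 27.3 FPKM in wild-type stem-like libraries. Nearly all of it was Klre1, a lectin-like receptor, and Eomes, a factor that CD8+ T cells also carry. In Cd69-/- term diff cells Klre1 was higher (1.12, adjusted p = 0.00325) and Eomes lower (-1.28, adjusted p = 0.0168), while Ncr1, Klrb1c and S1pr5 reached at most 0.375, 0.195 and 0.202 FPKM. The Eomes call was lost without any 1 of the 4 Cd69-/- libraries (adjusted p = 0.0645 to 0.109) and without a filter (adjusted p = 0.0795). No marker of these 3 lists with a row was at 0 in all libraries. The part of such cells in the differences of S1pr1, Klf2 and Klf3 was not tested.

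S1pr4 was the most abundant S1P receptor gene in every group, and none of its differences passed the threshold. Its values were 5.55 and 4.37 FPKM in Cd69-/- term diff, 5.36 and 3.31 FPKM in wild-type term diff, 6.37 and 4.69 FPKM in Cd69-/- stem-like, and 4.39 and 3.41 FPKM in wild-type stem-like libraries. In each group library 1 was the higher library, and each group overlapped its neighbour in the order of means. The Cd69-/- and wild-type stem-like groups, at the ends of that order, did not overlap.

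The subset difference of S1pr4 was -0.13 ± 0.22 in Cd69-/- (adjusted p = 0.766, 95% interval -0.64 to 0.38) and 0.10 ± 0.22 in wild type (adjusted p = 0.806, interval -0.41 to 0.61). The genotype difference was 0.41 ± 0.22 in stem-like cells (adjusted p = 0.778, interval -0.10 to 0.92) and 0.18 ± 0.22 in term diff cells (adjusted p = 0.723, interval -0.33 to 0.69). Both subset differences, the term diff genotype difference and the interaction changed sign when 1 library was left out. S1pr4 has a single exon and lies on chr10:81497745-81500137 (mm10, minus strand).

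The other S1P receptors were scarce. S1pr2, a receptor that opposes migration, reached at most 0.623 FPKM, S1pr3 at most 0.238 FPKM, and S1pr5, the egress receptor of NK cells, at most 0.202 FPKM. Of the 5 receptor genes, S1pr4 alone passed the filter on low values.

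Klf2 encodes the factor that drives S1pr1. It was at 2.51 and 2.77 FPKM in Cd69-/- term diff, 5.70 and 4.83 FPKM in wild-type term diff, 11.8 and 6.07 FPKM in Cd69-/- stem-like, and 5.60 and 7.28 FPKM in wild-type stem-like libraries. The 2 Cd69-/- term diff libraries were the lowest of the 8, and the other 3 groups overlapped in the order of their means. The highest library, Cd69-/- stem-like library 1, had 163 implied fragments, and the lowest, Cd69-/- term diff library 1, had 34.2.

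In Cd69-/- cells Klf2 fell to 2.64 ± 0.180 FPKM in term diff, against 8.95 ± 4.06 FPKM in stem-like cells (SD, n = 2 each), 3.39-fold lower (-1.39 ± 0.26, adjusted p = 0.0134). Genes called made up 9.45% of those tested in this comparison, and genes called lower 5.56%. The call was lost without Cd69-/- term diff library 1 (adjusted p = 0.0811) or its library 2 (adjusted p = 0.0715), and in the fit without a filter (adjusted p = 0.0683). In wild type the means were 5.26 ± 0.615 FPKM in term diff and 6.44 ± 1.19 FPKM in stem-like cells, a difference of -0.24 ± 0.26 (adjusted p = 0.594, 95% interval -0.83 to 0.35). It was 0.02 without both wild-type replicate 2 libraries.

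The Klf2 pattern was not shown to depend on genotype. The interaction was -1.15 ± 0.36 (unadjusted p = 0.0130, adjusted p = 0.542). In term diff cells the means were 2.64 FPKM in Cd69-/- and 5.26 FPKM in wild type, a 1.99-fold difference with no overlap between libraries (-0.78 ± 0.26, unadjusted p = 0.0155, adjusted p = 0.257, 95% interval -1.37 to -0.19). In stem-like cells the difference was 0.37 ± 0.26 (adjusted p = 0.815), and it was -0.06 in the fit without the high Cd69-/- stem-like library.

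Klf3 encodes a repressor of the same family. Its values were 0.110 and 0.0604 FPKM in Cd69-/- term diff, 0.315 and 0.156 FPKM in wild-type term diff, 1.43 and 0.559 FPKM in Cd69-/- stem-like, and 0.877 and 1.07 FPKM in wild-type stem-like libraries. As with S1pr1, all 4 term diff libraries lay below all 4 stem-like libraries, which was true of 11.1% of the genes tested. The 2 Cd69-/- term diff libraries held 2.99 implied fragments together and the 2 wild-type term diff libraries 9, against 35.4 in Cd69-/- stem-like and 33 in wild-type stem-like libraries.

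The subset difference of Klf3 missed the threshold in both genotypes, at -0.84 ± 0.22 in Cd69-/- (unadjusted p = 0.00497, adjusted p = 0.0517) and -0.68 ± 0.22 in wild type (unadjusted p = 0.0151, adjusted p = 0.0867). Klf3 was in this fit only through the stem-like libraries, where it was high, so its subset p-values support nothing on their own. In the fit without a filter they were higher (adjusted p = 0.128 in Cd69-/- and 0.185 in wild type). The difference passed in 4 alternatives that share this limit, which were a pseudocount of 0.1 in Cd69-/- (-2.45, adjusted p = 0.0408), Cd69-/- without its stem-like library 2 (adjusted p = 0.0248), and wild type without Cd69-/- stem-like library 1 (adjusted p = 0.0467) or 2 (adjusted p = 0.0446). Between genotypes Klf3 differed by -0.02 ± 0.22 in stem-like cells (adjusted p = 0.994, 95% interval -0.53 to 0.49) and by -0.18 ± 0.22 in term diff cells (adjusted p = 0.713, interval -0.69 to 0.33). The start of Klf3 is overlapped by annotated transcripts of other genes, one of them antisense, and the strand setting of the authors' counting is not given in the sources used here, so their reads may be mixed.

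**Figure D2:**
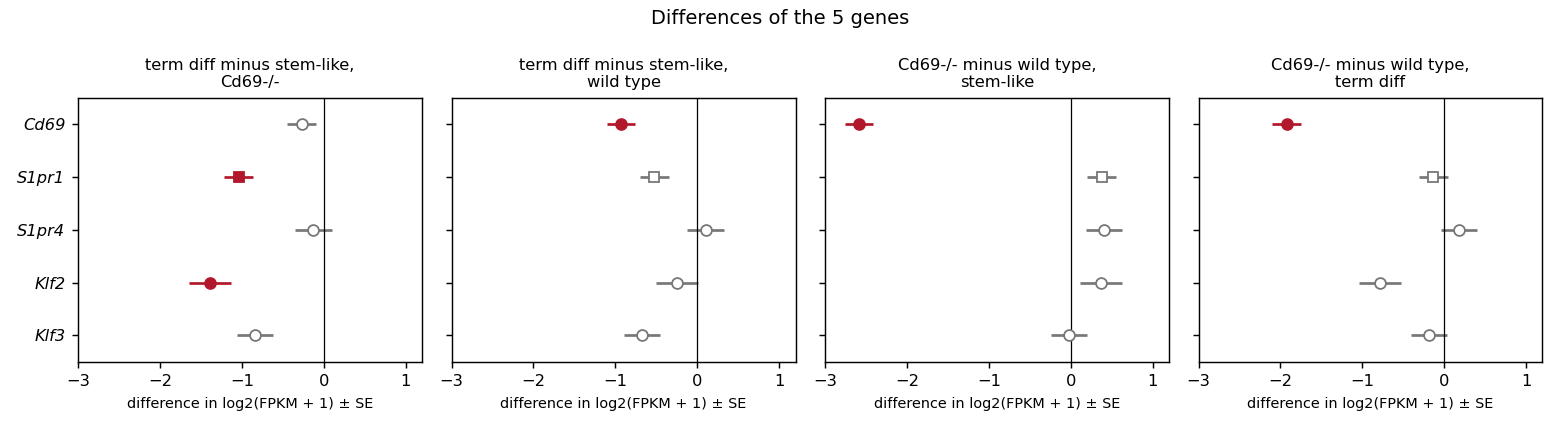
Differences in log2(FPKM + 1) with their SE (horizontal axes) for the 5 genes in 4 comparisons. Filled red symbols passed the adjusted threshold of 0.05, open grey symbols did not, and squares mark S1pr1, whose values come from the fit without a filter. Cd69 passed in 3 of the 4 comparisons, Klf2 and S1pr1 in the Cd69-/- subset comparison only.

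The stretches before the annotated start sites of Klf2 and Klf3 are shown because these are the 2 members that encode DNA-binding factors, and the motifs of their own family and of their known regulators can be read in them. RefSeq (GRCm38.p6) start sites were matched for 3 of the 5 genes (Klf2, Klf3 and S1pr4), and 250 bases before each were searched on both strands. Klf2 spans chr8:72319062-72321654 and Klf3 chr5:64803523-64830129 (mm10, both on the plus strand, with 3 and 6 exons in their first GENCODE transcripts). Capitals mark CACCC or its reverse complement GGGTG, the core that Krüppel-like factors bind, and the palindromic MEF2 consensus. The sequence of Klf2 covers chr8:72318812-72319061 and that of Klf3 chr5:64803271-64803520, both on the plus strand.
Klf2: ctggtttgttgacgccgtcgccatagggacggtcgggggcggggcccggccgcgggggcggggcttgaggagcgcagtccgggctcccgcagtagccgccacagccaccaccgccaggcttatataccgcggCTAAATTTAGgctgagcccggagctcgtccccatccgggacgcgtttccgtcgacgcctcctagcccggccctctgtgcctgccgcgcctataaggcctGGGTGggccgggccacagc
Klf3: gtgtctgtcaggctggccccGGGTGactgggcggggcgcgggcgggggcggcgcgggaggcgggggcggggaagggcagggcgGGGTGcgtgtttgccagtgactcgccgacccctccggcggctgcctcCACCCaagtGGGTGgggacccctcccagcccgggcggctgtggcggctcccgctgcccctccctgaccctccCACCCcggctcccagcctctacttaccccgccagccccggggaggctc
The Klf2 stretch held 1 CACCC core, 1 match to the MEF2 consensus (CTAAATTTAG, at base -118 from the start site), and 2 copies of GGGCGG (the GC box of SP and Krüppel-like factors), none of them overlapping. Among 32851 promoters of the same length, 0.508% held a match to the MEF2 consensus, 52% held CACCC and 32.7% held GGGCGG. The Klf3 stretch held 5 CACCC cores and 6 copies of GGGCGG, 1 pair of which overlapped, and no match to the MEF2 consensus. The S1pr4 stretch held 1 CACCC core and neither of the other motifs. These matches describe letters in the window and no binding.

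Other genes of the Krüppel-like family were measured beside Klf2 and Klf3. Of 17 family genes, 9 passed the filter. For term diff against stem-like, 2 fell and 1 rose in Cd69-/-, where 5.56% of all genes tested were called lower and 3.88% higher, and the median difference was -0.25 over the 9, beside -0.03 over all genes. In wild type 1 fell and 1 rose, where 5.83% of all genes were called lower and 7.24% higher, and the median was -0.03, beside 0.06. Klf10, a factor induced by TGF-beta, rose in Cd69-/- cells, where it averaged 5.02 FPKM in term diff and 2.35 FPKM in stem-like cells (0.85, adjusted p = 0.0134). It rose likewise in wild type, at 5.78 FPKM in term diff and 2.49 FPKM in stem-like cells (0.96, adjusted p = 0.00655), a call lost without both wild-type replicate 2 libraries (adjusted p = 0.0853).

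Klf4, which restrains proliferation of CD8+ T cells, went the other way. It averaged 2.11 FPKM in Cd69-/- term diff and 4.91 FPKM in Cd69-/- stem-like cells (-0.90, adjusted p = 0.0391), and 1.73 FPKM in wild-type term diff and 4.65 FPKM in wild-type stem-like cells (-1.07, adjusted p = 0.0167). The Cd69-/- calls of Klf4 and Klf10 were lost without any 1 of Cd69-/- stem-like library 1 and Cd69-/- term diff libraries 1 and 2 (adjusted p up to 0.236 and 0.105), and that of Klf4 also without wild-type stem-like library 1 (adjusted p = 0.0559) or 2 (adjusted p = 0.0555). The wild-type Klf4 call was lost without wild-type stem-like library 1 or 2 or term diff library 2 (adjusted p up to 0.0907), or without both replicate 2 libraries (adjusted p = 0.211). The most abundant family genes were Klf6, with group means of 25.4 to 30.5 FPKM, and Klf13, with 10.9 to 14.6 FPKM, and neither was called in any comparison. Klf7 at 2.22 to 3.16 FPKM, Klf9 at 1.01 to 2.22 FPKM and Klf16 at 1.66 to 2.01 FPKM were not called either.

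**Figure D3:**
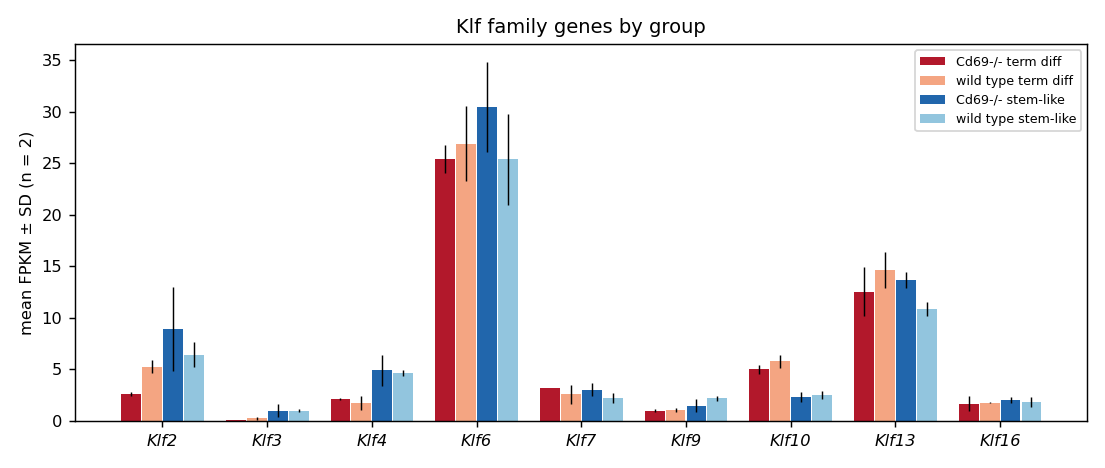
Mean FPKM ± SD (vertical axis, linear, from 0; n = 2 per group) of the 9 Krüppel-like family genes that passed the filter, with bars in the order Cd69-/- term diff, wild-type term diff, Cd69-/- stem-like and wild-type stem-like. Klf6 and Klf13 are the highest in every group, Klf10 is higher and Klf4 lower in term diff cells of both genotypes, and Klf2 is lowest in Cd69-/- term diff cells.

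Among genes known to act upstream of Klf2, 12 of 13 passed the filter. In term diff of Cd69-/- mice 1 rose and 2 fell (median -0.13, beside -0.03 over all genes), 3 of 12 called against 9.45% of all genes. In wild type 1 rose and 1 fell (median 0.09, beside 0.06), 2 of 12 against 13.1%. Mef2a, of the MEF2 family that drives Klf2 in endothelial cells, rose in both genotypes. It averaged 15.1 FPKM in Cd69-/- term diff and 9.80 FPKM in Cd69-/- stem-like cells (0.57, adjusted p = 0.0323), and 16.9 FPKM in wild-type term diff and 9.27 FPKM in wild-type stem-like cells (0.81, adjusted p = 0.00653).

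Pik3ip1, an inhibitor of PI3K (a kinase whose activity keeps FOXO1 out of the nucleus), fell in both genotypes (-1.10, adjusted p = 0.0233 in Cd69-/-, and -1.13, adjusted p = 0.0168 in wild type). Pik3ip1 reached 1 FPKM in only 1 term diff library, so it passed the filter through the stem-like libraries, where it was high. Foxp1, a factor of T cell quiescence, averaged 6.01 FPKM in Cd69-/- term diff and 10.8 FPKM in Cd69-/- stem-like cells (-0.75, adjusted p = 0.0159). Foxo1, the direct activator of Klf2, averaged 6.62 FPKM in Cd69-/- term diff and 9.76 FPKM in Cd69-/- stem-like cells (-0.51, adjusted p = 0.134), and 10.1 FPKM in wild-type term diff and 9.66 FPKM in wild-type stem-like cells (0.07, adjusted p = 0.849). Of the 3 Cd69-/- calls, those of Foxp1, Mef2a and Pik3ip1 were each lost without Cd69-/- stem-like library 1 and without Cd69-/- term diff library 2 (adjusted p = 0.102 to 0.187). Mef2a lost it too without the remaining Cd69-/- libraries (adjusted p = 0.106 and 0.13), and Pik3ip1 without Cd69-/- stem-like library 2 (adjusted p = 0.0746). In wild type the Pik3ip1 call was lost without wild-type stem-like library 2 or either wild-type term diff library (adjusted p up to 0.0878), and without both replicate 2 libraries (adjusted p = 0.147).

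Of 12 genes listed for synthesis, breakdown and export of S1P and related lipids, 9 had a row under the symbol searched and 6 passed the filter. Other symbols were not searched. In each genotype 1 of the 6 was called, beside 9.45% of all genes in Cd69-/- and 13.1% in wild type. Sgpp2, an S1P phosphatase, fell in Cd69-/- cells, with 0.269 FPKM in term diff and 1.41 FPKM in stem-like cells (-0.92, adjusted p = 0.0127). It fell in wild type, with 0.247 FPKM in term diff and 1.27 FPKM in stem-like cells (-0.86, adjusted p = 0.0137). It reached 1 FPKM in the stem-like libraries alone and so passed the filter through the subset where it was high. In the fit without a filter it stayed called (adjusted p = 0.0402 in Cd69-/- and 0.0409 in wild type). The median of the 6 was 0.10 in Cd69-/- and -0.08 in wild type, beside -0.03 and 0.06 over all genes. The Cd69-/- call of Sgpp2 was lost without any 1 of the 4 Cd69-/- libraries (adjusted p = 0.0513 to 0.0945), and the wild-type call without either wild-type replicate 2 library (adjusted p = 0.0688 and 0.0758) or both (adjusted p = 0.188). The kinase Sphk1, which makes S1P, and the exporter Spns2 were at most 0.349 and 0.220 FPKM.

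Genes through which S1P receptors signal and are switched off were measured more completely. Of 23 symbols listed, 22 had a row and 21 passed the filter. Grk2 and Adrbk1 are 2 symbols of 1 gene, which had its row as Adrbk1. Term diff cells of Cd69-/- mice had 2 of them higher and 1 lower (median 0.03, beside -0.03 over all genes), and those of wild type 3 higher and 1 lower (median 0.18, beside 0.06). These 3 and 4 calls among 21 genes stand beside 9.45% and 13.1% of all genes called. Rgs16, which shortens signalling by inhibitory G proteins, averaged 130 FPKM in Cd69-/- term diff and 37.8 FPKM in Cd69-/- stem-like cells (1.76, adjusted p = 0.000267). It averaged 117 FPKM in wild-type term diff and 35.8 FPKM in wild-type stem-like cells (1.68, adjusted p = 0.000245).

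Rgs2, of the same family, averaged 41.2 FPKM in Cd69-/- term diff and 19.9 FPKM in Cd69-/- stem-like cells (1.01, adjusted p = 0.00223), and 33.7 FPKM in wild-type term diff and 19.1 FPKM in wild-type stem-like cells (0.79, adjusted p = 0.00553). Gnaq, a G protein alpha subunit that activates phospholipase C, fell in Cd69-/- cells, with 0.775 FPKM in term diff and 2.91 FPKM in stem-like cells (-1.14, adjusted p = 0.00568), and in wild type, with 0.902 FPKM in term diff and 2.81 FPKM in stem-like cells (-1.01, adjusted p = 0.0075). Gnaq reached 1 FPKM in only 1 term diff library, so it passed the filter through the stem-like libraries, where it was high. Rac2, a GTPase of blood cells that remodels actin, rose in wild type, at 48.3 FPKM in term diff and 32.5 FPKM in stem-like cells (0.56, adjusted p = 0.0234). Its call was lost without wild-type stem-like library 1 or either wild-type term diff library (adjusted p up to 0.122), and the Cd69-/- call of Gnaq without Cd69-/- stem-like library 1 (adjusted p = 0.0539). Without both wild-type replicate 2 libraries Rgs16 alone of this list stayed called in wild type (adjusted p = 0.0126).

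The homing and residency lists set the members beside genes of T cell movement and, as with Tcf7, Lef1 and Il7r, of T cell state. These lists, like the others, were drawn up with earlier results of these libraries known, and the sort may have used some of their products. Of 12 genes of lymph node homing and recirculation, all passed the filter. Relative to stem-like, 7 fell and 1 rose in Cd69-/- term diff (median -1.04), and in wild type 8 fell and 2 rose (median -0.99), beside medians of -0.03 and 0.06 over all genes. Of all genes 5.56% were called lower and 3.88% higher in Cd69-/-, and 5.83% lower and 7.24% higher in wild type. The largest falls were those of Tcf7, the progenitor transcription factor (-5.28 in Cd69-/- and -5.20 in wild type), and Ccr7, the chemokine receptor of lymph node entry (-3.98 and -3.74). The next largest was Itgb7, an integrin beta chain, in Cd69-/- (-2.35) and Il7r, the interleukin-7 receptor, in wild type (-2.64). Itgb7, Lef1 and Cxcr4 reached 1 FPKM in only 1 term diff library each, and Tcf7 and Cxcr5 in 0. All of these passed the filter through the stem-like libraries, where they were high, and count among the falls of both genotypes. In the fit without a filter Cxcr4 was not called (adjusted p = 0.104 in Cd69-/- and 0.0948 in wild type). Nor was Cxcr5 (adjusted p = 0.0675 and 0.0786). The wild-type calls of Lef1, Cxcr4 and Cxcr5 were lost without both wild-type replicate 2 libraries.

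The called rises of the homing list were smaller. Itgb2, the beta chain of the integrin LFA-1, rose in both genotypes (0.62, adjusted p = 0.0246 in Cd69-/-, and 0.53, adjusted p = 0.038 in wild type), and Selplg, a selectin ligand, rose in wild type (0.73, adjusted p = 0.0395). All 3 calls were lost on leaving out single libraries: Itgb2 in Cd69-/- without any of the 4 Cd69-/- libraries (adjusted p up to 0.181), Itgb2 in wild type without any 1 of the 8 libraries (adjusted p up to 0.151), and Selplg without any of the 6 libraries other than the Cd69-/- term diff pair (adjusted p up to 0.18). Without both wild-type replicate 2 libraries the wild-type calls of Itgb2 and Selplg were lost too (adjusted p = 0.169 and 0.104).

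Of 15 tissue residency genes 11 passed the filter. Of these, 4 rose and 1 fell in Cd69-/- term diff (median -0.007, beside -0.03 over all genes), and in wild type 5 rose and 1 fell (median 0.61, beside 0.06). Of all genes 3.88% were called higher in Cd69-/- and 7.24% in wild type. Cxcr6, which holds T cells in tissue, rose by 2.06 in Cd69-/- and 2.11 in wild type. Itga1, an integrin chain of resident cells, rose by 1.74 in Cd69-/- cells and 1.17 in wild type, and Prdm1, a residency and effector factor, by 1.37 in Cd69-/- and 1.78 in wild type. Chn2, a GTPase activator for Rac, rose by 1.303 in Cd69-/- cells and by 1.48 in wild type. The Cd69-/- call of Chn2 was lost without Cd69-/- stem-like library 1 (adjusted p = 0.0536) or Cd69-/- term diff library 1 (adjusted p = 0.0516). Ahr, a ligand-activated transcription factor, rose by 0.93 in wild type, a call lost without wild-type stem-like library 1 (adjusted p = 0.091) or wild-type term diff library 2 (adjusted p = 0.093), or without both wild-type replicate 2 libraries (adjusted p = 0.0814). Crtam, an adhesion receptor of activated T cells, fell by 1.72 in Cd69-/- and 2.29 in wild type, against the direction of the other calls. Itgae, the integrin chain CD103, which binds epithelial E-cadherin and often accompanies CD69 on resident cells, was at most 0.547 FPKM and was not tested.

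**Figure D4:**
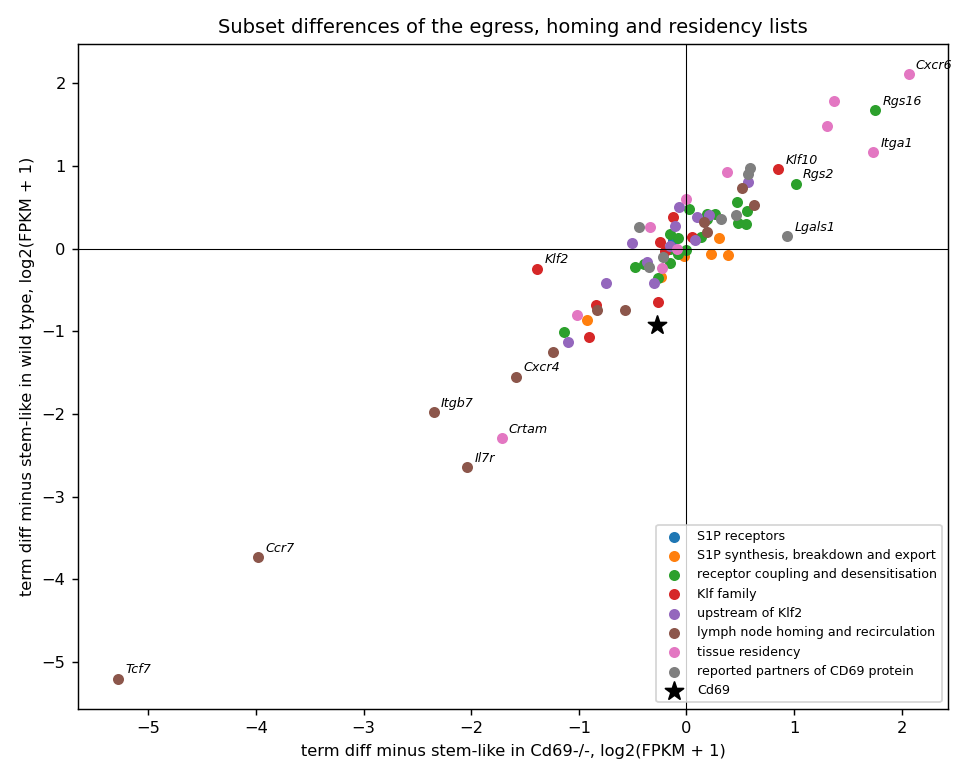
Term diff minus stem-like difference in log2(FPKM + 1) of every listed gene that passed the filter, in Cd69-/- (horizontal axis) and in wild-type cells (vertical axis). Colours give the lists, the star is Cd69. Cxcr6 and Rgs16 lie at the upper right and Tcf7 and Ccr7 at the lower left, while Klf2 lies at -1.39 in Cd69-/- and -0.24 in wild type.

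Among 11 genes whose products have been reported to bind CD69 or to act with it, 8 passed the filter. In term diff 2 rose in Cd69-/- (median 0.39, beside -0.03 over all genes) and 2 in wild type (median 0.31, beside 0.06), and 0 fell. The share of all genes called higher was 3.88% in Cd69-/- and 7.24% in wild type. Slc7a5, an amino acid transporter chain that CD69 associates with, rose in both (0.59, adjusted p = 0.0246 in Cd69-/-, and 0.98, adjusted p = 0.0023 in wild type). Its partner chain Slc3a2 rose in wild type (0.90, adjusted p = 0.0188), and Lgals1, a galectin and CD69 ligand, rose in Cd69-/- cells, at 200 FPKM in term diff and 104 FPKM in stem-like cells (0.94, adjusted p = 0.0223). The Cd69-/- calls of Lgals1 and Slc7a5 were lost without Cd69-/- stem-like library 1 or 2 or Cd69-/- term diff library 1, and that of Lgals1 also without Cd69-/- term diff library 2 (adjusted p up to 0.136 and 0.147). The wild-type call of Slc3a2 was lost without wild-type stem-like library 1 (adjusted p = 0.1) or wild-type term diff library 2 (adjusted p = 0.106), or both replicate 2 libraries (adjusted p = 0.0766). The myosin light chain Myl9, a further ligand, reached at most 0.145 FPKM.

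Over all 8 lists, 25 calls were made for the subset difference in Cd69-/- cells and 27 in wild type among 80 genes tested, beside 9.45% and 13.1% of all genes. Since the lists were drawn up with results known, these counts are a description. Of the calls 10 and 16 held whichever 1 of the 8 libraries was left out, 25 and 12 without both wild-type replicate 2 libraries, and 15 and 19 in the fit without a filter. Among the genes named, that fit ended the Cd69-/- calls of Klf2, Klf4, Klf10, Foxp1, Mef2a, Pik3ip1, Cxcr4, Cxcr5, Slc7a5 and Lgals1 (adjusted p = 0.0521 to 0.13). It also ended the wild-type calls of Klf4, Pik3ip1, Itgb2, Selplg, Cxcr4, Cxcr5, Ahr and Slc3a2 (adjusted p = 0.051 to 0.116). As with Sgpp2, Tcf7 reached 1 FPKM in no term diff library and Itga1 in no stem-like library, and both stayed called in that fit. Gnaq, Pik3ip1, Itgb7, Lef1, Cxcr4 and Cxcr5 passed the filter through the stem-like libraries too. Of these, Gnaq, Itgb7 and Lef1 stayed called in that fit in both genotypes. Between genotypes, limma called 0 of the 80 listed genes within stem-like cells and 0 within term diff cells. Of the 80, 6 and 14 had an unadjusted p under 0.05, beside 710 and 1481 of all 9782 genes tested. Averaged over subsets Il7r alone was called, at 4.84 FPKM in Cd69-/- term diff and 1.66 FPKM in wild-type term diff, and at 22.8 FPKM in Cd69-/- stem-like and 15.8 FPKM in wild-type stem-like cells (0.82, adjusted p = 0.0484). That call was lost without any 1 of 7 libraries, all but wild-type stem-like library 2 (adjusted p = 0.0766 to 0.179), without both wild-type replicate 2 libraries (adjusted p = 0.102) and without a filter (adjusted p = 0.2). Of all genes 0.542% were called in that comparison.

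Genes with the most alike pattern over the 8 libraries were looked up for the members whose group means spanned at least 1 on the log2(FPKM + 1) scale. These were Cd69 with a span of 2.85, Klf2 with 1.39 and S1pr1 with 1.04, while Klf3 spanned 0.86 and S1pr4 0.41. Likeness was the mean absolute gap between centred log2(FPKM + 1) values, among 5033 named genes whose highest group mean was 5 FPKM or more. It is a description, and no test was made.

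Nearest to Cd69 was Mrc2, a collagen-binding endocytic receptor, with a mean gap of 0.358. Its group means were 2.31 FPKM in Cd69-/- term diff, 9.68 FPKM in wild-type term diff, 4.94 FPKM in Cd69-/- stem-like and 15.8 FPKM in wild-type stem-like cells. Next were Pkp4, a junction protein (0.616), the NK receptor chain gene Klrc3 (0.621), Ikzf2, the transcription factor Helios (0.648), and Mmd (0.648). Klrc3 averaged 20.6 FPKM in Cd69-/- term diff, 41.5 FPKM in wild-type term diff, 8.81 FPKM in Cd69-/- stem-like and 45.5 FPKM in wild-type stem-like cells. Klrc3 lies 363.7 kb from Cd69 on chromosome 6, and the other 4 lie on other chromosomes.

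Nearest to S1pr1 were the calcium pump gene Atp2a3 (mean gap 0.103), the kinase genes Nek7 (0.107), Fyn (0.109) and Tlk1 (0.112), and Fam168a (0.119). Atp2a3 averaged 9.54 FPKM in Cd69-/- term diff, 9.91 FPKM in wild-type term diff, 16.9 FPKM in Cd69-/- stem-like and 15.9 FPKM in wild-type stem-like cells. All 5 were far more abundant than S1pr1, and the pseudocount flattens the S1pr1 pattern to which they were matched.

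Nearest to Klf2 was Wisp1, which encodes a secreted matrix protein (mean gap 0.17), at 5.17 FPKM in Cd69-/- term diff, 9.21 FPKM in wild-type term diff, 11.7 FPKM in Cd69-/- stem-like and 12.6 FPKM in wild-type stem-like cells. Then came Lrrc8d, an anion channel subunit (0.18), the amino acid transporter gene Slc7a1 (0.199), the cytokine signalling suppressor gene Socs5 (0.201), and Zcchc11 (0.202), which encodes a uridylyltransferase. Like Klf2, each of the 5 had its lowest group mean in Cd69-/- term diff cells, a likeness that the way they were picked favours.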

How the data were processed

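Each library had 1 deposited gene table in the layout of Cufflinks, holding FPKM and the limits of its interval in FPKM. A SMARTer stranded low-input kit was used on total RNA, with single-end reads on a NextSeq500, per the labels' protocols. Cufflinks 2.2.1, TopHat 1.3.2, Bowtie2 2.3.4, bcl2fastq 2.20 and build mm10 are named, per the submitters' processing notes. The annotation, the strand setting and the scaling total of the FPKM are not given in the sources used here. No read counts were used. Implied fragments were the square of 2 times the FPKM over the distance to its upper limit. They cover counting error only and are approximate: of rows under 15 fragments, 63.61% to 65.49% lay within 0.05 of a whole number.

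A status that was not OK marked 5 values, and their 3 genes were dropped. FPKM was used as deposited, as log2(FPKM + 1), where 2 or more libraries reached 1 FPKM. Group means of all 8 libraries were fitted in limma 3.58.1 (R 4.3.3, trended prior, 4 residual and 4.202 prior degrees of freedom), 2-sided. The fit was first run on simulated data with independent normal noise. That run checked only the sign of called changes and that some large changes were found, and set no limit on false calls. S1pr1 came from the same fit without a filter and an exact permutation test. No replicate block entered the fit. The 5 members and all gene lists were chosen with earlier results of these data known. The genes named were, per list, all genes called where 6 or fewer were called, otherwise the 3 largest in each direction. The others named were S1P receptors and Krüppel-like genes by level, cell type markers, and the 5 genes most like a member. Foxo1, Adrbk1, Lef1, Cxcr4, Cxcr5 and genes below the filter, such as Itgae, were named outside that rule after their values were seen. A gene of the tissue residency list is not reported here and was left out of that list's counts and median. Alternatives were pseudocounts of 0.1 and 5, no filter or 5 FPKM, median-of-ratios scaling (factors 0.9438 to 1.033), quantile normalization, a replicate block, only the groups compared, and each library left out. Leaving out both wild-type replicate 2 libraries, all alternatives of the fit of S1pr1 and a crossed pairing were added after seeing the data. Promoter sequences are those of RefSeq, GRCm38.p6.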

Additional observations from a re-analysis of the deposited data

How the results depend on the processing

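Among the members, Cd69 between genotypes in stem-like cells and averaged over subsets stayed past the threshold under every alternative run. Leaving out 1 library at a time gave -1.071 to -0.782 for Cd69 between subsets in wild type, -2.071 to -1.781 between genotypes in term diff, and -1.817 to -0.959 for Klf2 between subsets in Cd69-/-. It gave -1.164 to -0.523 for Klf3 between subsets in Cd69-/- and -0.772 to -0.586 in wild type. For S1pr1 between subsets in Cd69-/- the fit without a filter gave -1.039 without any 1 wild-type library, and -0.823, -1.255, -0.948 and -1.129 without stem-like 1, stem-like 2, term diff 1 and term diff 2 of Cd69-/-. It was past the threshold with median-of-ratios scaling (adjusted p = 0.0395) but not in the other 10 alternatives. Directions that changed with 1 library left out were those of S1pr4 (between subsets -0.313 to 0.06 in Cd69-/- and -0.179 to 0.384 in wild type, between genotypes -0.101 to 0.462 in term diff, interaction -0.511 to 0.052), Klf2 (between genotypes -0.063 to 0.794 in stem-like, -0.422 to 0.007 averaged) and Klf3 (between genotypes -0.34 to 0.301 in stem-like, -0.262 to 0.058 averaged, interaction -0.486 to 0.155). Without both wild-type replicate 2 libraries the values were -1.042 and -1.781 for the 2 Cd69 differences, -1.039 for S1pr1 in Cd69-/- (adjusted p = 0.173), -0.101 for S1pr4 between genotypes in term diff, 0.022 for Klf2 between subsets in wild type and 0.053 for Klf3 between genotypes in stem-like. Klf2 in Cd69-/- was -1.388 without a filter (adjusted p = 0.0683). Klf3 between subsets in Cd69-/- was -2.454 with a pseudocount of 0.1, and between genotypes in stem-like 0.001 with a pseudocount of 5. Klf3 had no value at 5 FPKM and S1pr1 none in any filtered fit.

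Genes called between subsets in Cd69-/- numbered 924 of 9782, 545 without a filter and 289 to 888 with 1 library left out. In wild type they numbered 1278, against 752 without a filter, 756 with only the groups compared, 325 without both wild-type replicate 2 libraries and 608 to 1099 with 1 library left out. Between genotypes in stem-like they numbered 15, against 5 (pseudocount of 0.1), 4 (no filter), 9 (5 FPKM), 24 (without both replicate 2 libraries) and 4 to 16 (1 library left out). In term diff they numbered 19, against 11 (no filter), 3 (5 FPKM), 9 (quantile normalization) and 3 to 21. Averaged over subsets they numbered 53, against 13 (no filter), 34 (5 FPKM), 29 (without both replicate 2 libraries) and 17 to 58. For the interaction they numbered 3, against 8 (pseudocount of 5), 18 (without both replicate 2 libraries) and 2 to 11. The cause of these shifts was not tested.

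With the replicate number as a block, genes called numbered 746 and 1070 between subsets in Cd69-/- and wild type, and 8 and 6 between genotypes in stem-like and term diff. The block ended the S1pr1 call in Cd69-/- (-1.039, adjusted p = 0.0949) and no other call of a member. Replicate deviations of same-numbered libraries correlated at -0.297 to 0.152 over the 6 pairs of groups, so the numbers were not taken to pair the libraries. The 2 Cd69-/- subsets correlated at -0.157, and crossing their numbers in the block gave 848 genes called. Few fragments behind S1pr1 and Klf3 in term diff libraries limit what can be read from their differences.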
